A study of Mus musculus with 6 samples.

Results

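The genes of the elastic fibre and its EMILIN proteins were followed through 3 mouse melanoma lines. The group holds 10 genes, chosen by symbol from the 23951 in the expression table: Emilin1, Emilin2, Fbn1, Fbn2, Mfap2, Mfap4, Mfap5, Eln, Fbln2 and Fbln5. None was chosen by a threshold on its values, although the study itself picked EMILIN-1 partly because its RNA was higher in B16-F1R2 in these libraries, so the Emilin1 difference between those lines is given as a description and not as independent evidence. RNA was sequenced from untreated cultures, with 2 libraries of each line. B16-F1 is a melanoma line of low metastatic potential obtained from a cell bank (ATCC). B16-F1R2 came from a metastasis in a lymph node, and B16-F1R2L from a metastasis in the lung that descended from the lymph node disease. Both metastatic lines were supplied by one outside laboratory, so that line and source cannot be told apart, and each line stands for a single derivation. Separate cultures for the libraries of one line are not stated in the sources used here, and p-values then measure only the spread between these libraries, which may be technical.

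Elastic fibres let skin, vessels and lymphatics stretch and recoil. They consist of a core of cross-linked elastin (Eln) on a scaffold of microfibrils, built from fibrillins (Fbn1, Fbn2) and decorated by the small microfibril-associated proteins (Mfap2, Mfap4, Mfap5). Fibulins (Fbln2, Fbln5) tie elastin to the scaffold and to integrins on cells, lysyl oxidases cross-link it, and the EMILINs sit where elastin meets the microfibril. EMILIN-1 also binds integrins through its C1q-like domain, restrains TGF-beta processing, anchors lymphatic vessels and can be inactivated by elastase and metalloproteinases. In skin these genes are known mainly from fibroblasts, and EMILIN-1 from lymphatic endothelium as well.

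Expression was given as FPKM, fragments per kilobase of transcript scaled to the mapped reads of the library, a measure on which levels of different genes can be compared. The depth was estimated at 12300000 to 14500000 reads per library, and 10617 to 11168 genes reached 1 FPKM in a library. Summed over 7 markers, melanocyte genes were at 14970 to 15010 FPKM in B16-F1, 7909 to 8125 in B16-F1R2 and 8924 to 8933 in B16-F1R2L, with none at 0. The endothelial markers Cdh5, Tie1, Tek, Kdr and Lyve1, the leukocyte markers Ptprc, Cd3e and Itgam and the keratinocyte markers Krt5, Krt1 and Krt10 were listed at 0 in all 6 libraries. Other markers of these lists were above 0. Pecam1 was at 0 in both B16-F1 libraries, at 0.758 and 0.752 FPKM in B16-F1R2, and at 1.09 and 1.26 FPKM in B16-F1R2L. Prox1 was at 0.790 to 1.66 FPKM with B16-F1 highest. In bulk RNA of this kind, fewer cells of a type and less RNA per cell cannot be told apart.

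Of the 10 genes, 4 reached 1 FPKM in at least 2 libraries and were tested: Emilin1, Emilin2, Mfap2 and Fbln5. The other 6 stayed at or below 0.316 FPKM in every library. Differences between lines were tested with limma over all 11379 genes that met this minimum, and a fold change is a difference of log2(FPKM + 0.1), given with its standard error and with p-values adjusted by the Benjamini-Hochberg method. A gene is said to have changed where the adjusted p was under 0.05. For a single gene taken alone, an exact two-sided permutation test of 2 libraries against 2 cannot go below p = 0.333.

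Emilin1, the founding EMILIN, was present in every line and was several-fold higher in the metastatic lines. It lies on chromosome 5 at 31215775-31223651 on the plus strand (NCBIM37, the assembly also called mm9, GENCODE annotation). Its level was 4.50 and 4.41 FPKM in the B16-F1 libraries, 40.3 and 40.6 FPKM in B16-F1R2, and 35.5 and 30.4 FPKM in B16-F1R2L. All 4 metastatic libraries were high, both B16-F1 libraries were low, and the lines did not overlap. The mean level was 9.08 times that of B16-F1 in B16-F1R2, with a log2 fold change of 3.15 (SE 0.0787, adjusted p = 1.52e-06). In B16-F1R2L the log2 fold change was 2.86 (SE 0.0787, adjusted p = 1.94e-06). Among the 23951 genes ordered by mean level, Emilin1 moved from place 8661 in B16-F1 to places 2403 and 2867 in B16-F1R2 and B16-F1R2L. The lower level amounts to about 209 to 230 reads per library, and 0.514% of the 50-base stretches of its transcripts also occur in another gene.

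Emilin2, which encodes the second EMILIN of the interface between elastin and microfibril, was listed at 0 in B16-F1 and present at a low level in both metastatic lines. It lies on chromosome 17 at 71601514-71660896 on the minus strand. Both B16-F1 libraries were listed at 0, the B16-F1R2 libraries were at 2.32 and 1.70 FPKM, and the B16-F1R2L libraries were at 1.98 and 1.49 FPKM. The metastatic values correspond to about 85.2 to 126 reads. No ratio is given against a value of 0. On the log2 scale with the added 0.1 the difference was 4.38 (SE 0.259, adjusted p = 3.82e-05) for B16-F1R2 and 4.18 (SE 0.259, adjusted p = 4.38e-05) for B16-F1R2L, and these sizes depend on the pseudocount, ranging from 1.58 to 7.64 and from 1.45 to 7.43 over the 15 alternatives. The gene was tested only because the metastatic libraries are above the minimum, so it had to differ.

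Mfap2 encodes MAGP-1, a small glycoprotein that sits on the fibrillin beads and binds TGF-beta family ligands. The gene lies on chromosome 4 at 140566333-140571899 on the plus strand. Its level was 0.105 and 0.210 FPKM in B16-F1, where these values amount to about 1.5 and 2.8 reads. The B16-F1R2 libraries were at 3.21 and 5.43 FPKM and the B16-F1R2L libraries at 8.42 and 7.90 FPKM, or about 48.0 to 124 reads. The lines were ordered B16-F1, B16-F1R2, B16-F1R2L with no overlap between neighbours, but the B16-F1R2 libraries lay farther apart than those of the other lines. The log2 fold change was 4.09 (SE 0.291, adjusted p = 7.93e-05) in B16-F1R2 and 5.03 (SE 0.291, adjusted p = 3.38e-05) in B16-F1R2L against B16-F1. With so few reads in B16-F1 the size is poorly fixed, and it ran from 2.17 to 4.72 and from 2.98 to 5.68 over the 16 alternatives.

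Fbln5, which encodes fibulin-5, an elastin-binding protein that brings tropoelastin to the microfibril and holds an RGD motif for integrins, went the other way. The gene lies on chromosome 12 at 102984775-103057265 on the minus strand. Its level was 25.7 and 24.1 FPKM in B16-F1, 9.65 and 8.76 FPKM in B16-F1R2, and 14.7 and 14.9 FPKM in B16-F1R2L. B16-F1 was highest, B16-F1R2L intermediate and B16-F1R2 lowest, without overlap. Against B16-F1, the mean was 2.71 times lower in B16-F1R2 (log2 fold change −1.43, SE 0.0677, adjusted p = 1.56e-05) and 1.68 times lower in B16-F1R2L (−0.75, SE 0.0677, adjusted p = 0.00022). Fbln5 was the highest of the 10 genes in B16-F1, whereas Emilin1 was the highest in both metastatic lines.

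**Figure D1:**
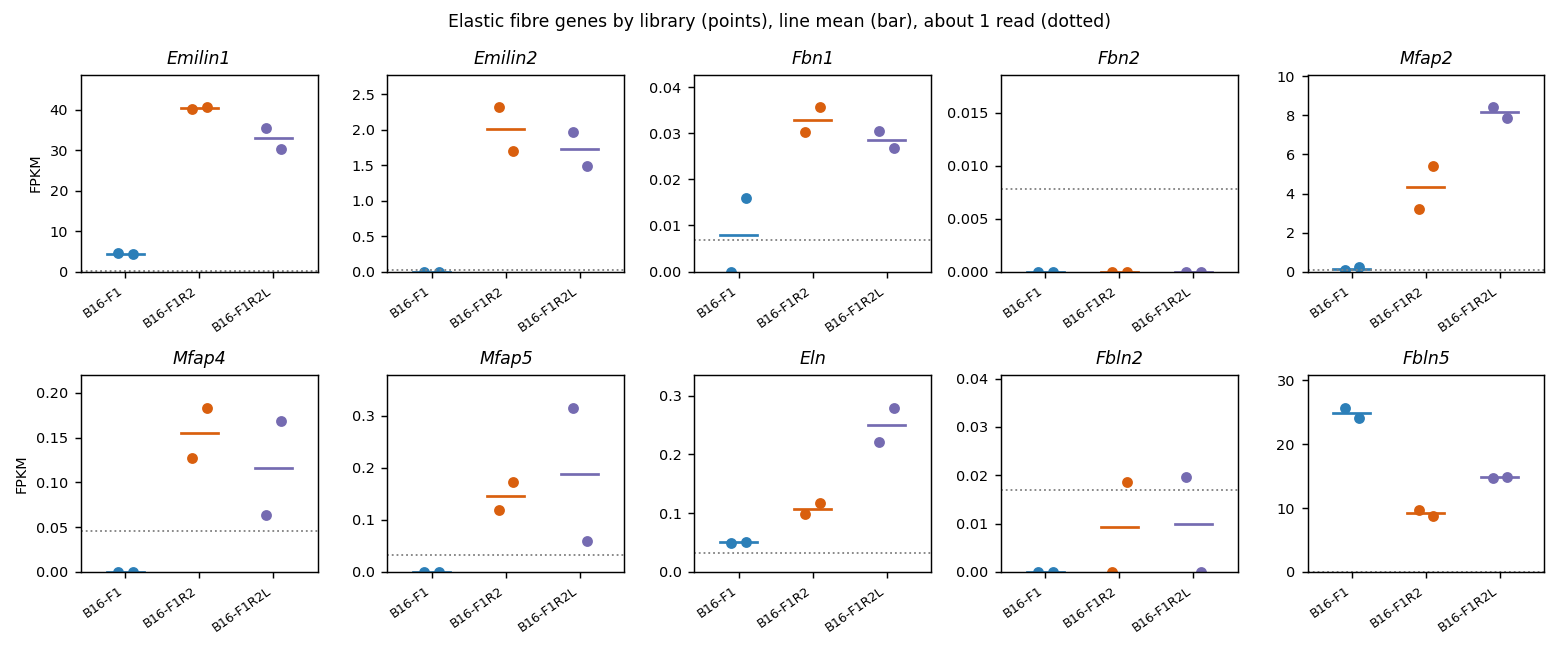
FPKM of the 10 elastic fibre genes in each library, 1 panel per gene with its own axis from 0; points are libraries, bars the mean of a line (n = 2), and the dotted line is the FPKM that about 1 read is worth. Emilin1 (4.41 to 40.6 FPKM) and Fbln5 (8.76 to 25.7 FPKM) lie far above single reads in every line, Emilin2 and Mfap2 do so in the metastatic lines, and the other 6 genes stay at or below 0.316 FPKM.

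Against B16-F1, 3 of the 4 tested genes were higher and 1 was lower in B16-F1R2, where 28.2% of all tested genes were higher and 27.2% lower. The same numbers, 3 higher and 1 lower, held in B16-F1R2L, where 29.5% of tested genes were higher and 27.1% lower. Emilin2 and Mfap2 met the minimum level only through the metastatic lines and therefore had to differ from B16-F1, so these counts are not read as support for a change of the group. Both comparisons also use the same B16-F1 libraries. The minimum does not fix the size of the differences for Emilin1 and Fbln5, which passed it in every line. Ranked by log2 fold change among the 11379 tested genes, Emilin1 was at place 316 from the top in B16-F1R2 and at place 402 in B16-F1R2L. Fbln5 was at places 192 and 521 from the bottom. No place is given for Emilin2 and Mfap2, whose entry through the metastatic lines alone partly fixes it.

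**Figure D2:**
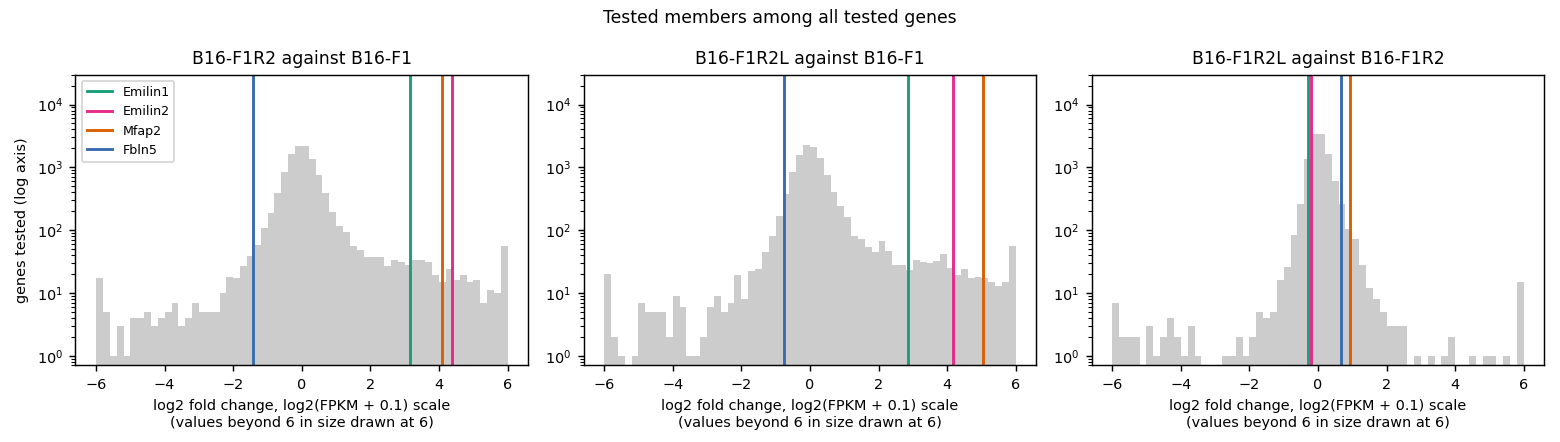
Distribution of the fold changes, as differences of log2(FPKM + 0.1), of the 11379 tested genes (grey, counts on a log axis) in the 3 comparisons, with the 4 tested elastic fibre genes as coloured lines. Emilin1 is drawn at 3.15 and 2.86 and Fbln5 at −1.43 and −0.75 against B16-F1; the places of Emilin2 and Mfap2 there are partly fixed by the minimum level. Between the metastatic lines all 4 lie within 0.95 of 0.

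The metastatic lines differed less from each other. Fbln5 was 1.61 times higher in B16-F1R2L than in B16-F1R2 (log2 fold change 0.68, SE 0.0677, adjusted p = 0.00362), and this held under 16 alternatives, a minimum log2 fold change of 1 aside. Emilin1 was 1.23 times lower (−0.30, SE 0.0787, adjusted p = 0.0416), close to the threshold, and the B16-F1R2L libraries lay farther apart than those of B16-F1R2. The Emilin1 call was lost under 10 of the 16 alternatives, among them without either B16-F1 library (adjusted p = 0.0769 and 0.0757), without B16-F1R2 replicate 1 (0.154) or replicate 2 (0.136), and without B16-F1R2L replicate 2 (0.118). Mfap2 was at 1.89 times the B16-F1R2 mean in B16-F1R2L but did not pass the test (0.95, SE 0.291, adjusted p = 0.062), whereas it passed with a pseudocount of 1 (0.81, adjusted p = 0.028). Without B16-F1R2 replicate 2, the higher of the pair, its value was 1.32 (adjusted p = 0.0499), and without replicate 1 it was 0.58 (adjusted p = 0.25). Emilin2 overlapped between the metastatic lines (−0.20, SE 0.259, adjusted p = 0.604), and its sign turned without B16-F1R2 replicate 1 (0.0107, adjusted p = 0.988). Thus 1 of the 4 was higher and 1 lower, in a comparison in which 12.1% of all tested genes were higher and 10.5% lower.

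The other 6 genes include the fibre's main building blocks, and all were near the limit of detection. Eln encodes elastin itself, the elastic core protein. It was at 0.0488 and 0.0517 FPKM in B16-F1, 0.0982 and 0.117 FPKM in B16-F1R2, and 0.221 and 0.280 FPKM in B16-F1R2L. The lines did not overlap, but the values amount to about 1.6 to 10.5 reads. Fbn1, for the main fibrillin of adult tissue, was at 0 and 0.0159 FPKM in B16-F1, 0.0303 and 0.0356 FPKM in B16-F1R2 and 0.0305 and 0.0268 FPKM in B16-F1R2L, at most about 6.2 reads. Of the 50-base stretches of Fbn1, 19.9% also lie in Gm9913, a gene model on the opposite strand, and whether reads were assigned by strand is not given in the sources used here. Fbn2, for the fibrillin of developing tissue, was listed at 0 in all 6 libraries.

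Mfap4, which encodes an integrin-binding microfibril protein of skin and vessels, was listed at 0 in both B16-F1 libraries. It was at 0.127 and 0.183 FPKM in B16-F1R2 and 0.0637 and 0.168 FPKM in B16-F1R2L, or about 1.5 to 4.7 reads. The exons of Mapk7 on the other strand overlap it, with 2.23% of its stretches shared. Mfap5, for MAGP-2, the partner of MAGP-1 on microfibrils, was also listed at 0 in B16-F1, at 0.120 and 0.174 FPKM in B16-F1R2, and at 0.316 and 0.0590 FPKM in B16-F1R2L. The B16-F1R2L libraries of Mfap5 thus spanned both B16-F1R2 values. Fbln2, for a fibulin of basement membranes and microfibrils, was above 0 only in B16-F1R2 replicate 2 (0.0186 FPKM) and B16-F1R2L replicate 1 (0.0197 FPKM), with about 1.3 reads each.

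For 4 of the 5 genes among these with a value above 0, Eln, Fbn1, Mfap4 and Mfap5, both libraries of B16-F1R2 lay above both of B16-F1, and the same 4 did so in B16-F1R2L. Over the 5104 genes that were above 0 somewhere but under the minimum level, 23.4% and 28.5% did so. When every gene with a value above 0 was tested, 16483 in all with 21.3% called higher in B16-F1R2 and 23.2% in B16-F1R2L, Mfap4 passed in B16-F1R2 (log2 fold change 1.34, adjusted p = 0.0161) and in B16-F1R2L (1.07, adjusted p = 0.0324). Eln passed in B16-F1R2L (1.22, adjusted p = 0.00387) and not in B16-F1R2 (0.46, adjusted p = 0.0772). Mfap5 passed in neither (1.29, adjusted p = 0.0848, and 1.36, adjusted p = 0.0719), nor did Fbn1 (0.30, adjusted p = 0.145, and 0.26, adjusted p = 0.202) or Fbln2 (0.12, adjusted p = 0.588, and 0.13, adjusted p = 0.559). Mfap4, Mfap5 and Fbln2 were above 0 only in metastatic libraries, and from a B16-F1 level of 0 they could not fall. The Mfap4 calls, and the share of Mfap4 and Mfap5 in the count of 4, are therefore not read as evidence. At a few reads per library, a difference in these 6 genes is at the edge of what the depth can show, and the elastin and fibrillin transcripts of the fibre core stayed at least an order of magnitude below Emilin1 in every library.

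The promoters of the 4 tested genes are shown because 3 of them were higher and 1 lower in the same lines. RefSeq windows of 300 bases, 250 before and 50 after a transcription start, were listed for 6 of the 10 genes. Those of the 4 tested genes were matched to NCBIM37. Each window below occurs once in NCBIM37 and is the one whose start lies nearest the gene's annotated 5′ end. The windows are printed 5′ to 3′ on the gene's strand, with motif matches on either strand in capitals.
Emilin1, chr5:31215909-31216208, plus strand: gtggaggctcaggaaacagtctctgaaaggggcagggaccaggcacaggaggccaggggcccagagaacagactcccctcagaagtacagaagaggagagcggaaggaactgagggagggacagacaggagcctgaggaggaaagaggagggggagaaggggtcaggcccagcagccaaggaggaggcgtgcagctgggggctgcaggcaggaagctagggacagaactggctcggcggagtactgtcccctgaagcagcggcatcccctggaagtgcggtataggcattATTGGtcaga
Emilin2, chr17:71660847-71661146, minus strand: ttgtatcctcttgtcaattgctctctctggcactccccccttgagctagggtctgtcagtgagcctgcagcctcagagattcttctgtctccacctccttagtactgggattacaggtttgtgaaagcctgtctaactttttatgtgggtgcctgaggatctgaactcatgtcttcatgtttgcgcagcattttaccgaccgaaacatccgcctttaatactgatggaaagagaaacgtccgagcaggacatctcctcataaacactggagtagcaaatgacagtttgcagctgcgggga
Mfap2, chr4:140566089-140566388, plus strand: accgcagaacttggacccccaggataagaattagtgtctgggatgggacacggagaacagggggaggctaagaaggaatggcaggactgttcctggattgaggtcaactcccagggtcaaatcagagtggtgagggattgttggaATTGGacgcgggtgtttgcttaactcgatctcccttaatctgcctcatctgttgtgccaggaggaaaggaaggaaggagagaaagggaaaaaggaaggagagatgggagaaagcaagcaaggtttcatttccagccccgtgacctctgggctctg
Fbln5, chr12:103057280-103057579, minus strand: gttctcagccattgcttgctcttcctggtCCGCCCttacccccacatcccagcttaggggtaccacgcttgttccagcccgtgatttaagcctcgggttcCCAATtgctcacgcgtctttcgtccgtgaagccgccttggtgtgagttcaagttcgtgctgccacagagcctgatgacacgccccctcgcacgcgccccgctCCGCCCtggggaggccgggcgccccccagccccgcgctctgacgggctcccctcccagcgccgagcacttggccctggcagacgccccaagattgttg
The motifs searched were the TATA box (TATAAA), the CCAAT box (CCAAT), the GC box (GGGCGG), the E-box (CACGTG), the M-box core bound by the melanocyte factor MITF (TCATGTG) and the AP-1 site (TGACTCA), and none of these overlapped another in the windows shown. Emilin1 and Mfap2 each held 1 CCAAT box, found as its reverse complement ATTGG. Fbln5 held 1 CCAAT box and 2 GC boxes, and Emilin2 held none of the 6 motifs. The matches depend on the start chosen: RefSeq has a second window for Emilin2 and for Mfap2 with 2 GC boxes each, and one for Fbln5 with no motif. Among 32851 RefSeq windows of the same length, 37.4% held a CCAAT box, 35.7% a GC box, 13.6% a TATA box, 7.15% the E-box, 3.77% the M-box core and 5.2% the AP-1 site, so single matches are common. The windows shown held 24 CpG dinucleotides in Fbln5, 6 in Emilin1, 7 in Emilin2 and 6 in Mfap2, beside a median of 7 over all windows. In the second windows the order turned, with 8 in Fbln5, 21 in Emilin2 and 22 in Mfap2. GC content in the windows shown was 65.7% in Fbln5, 61.7% in Emilin1, 52.0% in Mfap2 and 48.3% in Emilin2, beside a median of 52.7%, and in the second windows it ran from 48.7% in Fbln5 through Emilin2 to 68.0% in Mfap2. A match is a string of letters and not a measured binding site.

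Genes that make, cross-link, bind or cut elastic fibres were examined as 42 partners, of which 23 were tested. Against B16-F1, 8 were higher and 8 lower in B16-F1R2, and 11 higher and 5 lower in B16-F1R2L. All tested genes gave 28.2% higher and 27.2% lower in the first comparison, and 29.5% and 27.1% in the second. The last partner count was 3 without either B16-F1 library or without B16-F1R2L replicate 2. Fbln7, counted as higher in both lines, met the minimum only through the metastatic lines. Adamtsl2, counted as higher in B16-F1R2L, met it only through that line. The median log2 fold change of the tested partners was −0.10 and 0.29. The partners moved in both directions, and the fibulins, the lysyl oxidases and the proteases each held genes that rose and genes that fell in both comparisons.

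Within the EMILIN and multimerin family, none of the other members reached the minimum level. Emilin3 and Mmrn1, for the remaining EMILIN and for multimerin of platelets and endothelium, were listed at 0 in all 6 libraries. Mmrn2, for an endothelial multimerin, was at 0.0403 and 0.0420 FPKM in B16-F1, 0.319 and 0.390 FPKM in B16-F1R2, and 0.318 and 0.307 FPKM in B16-F1R2L. The metastatic lines were above B16-F1 without overlap, and without the minimum the log2 fold change was 1.68 (adjusted p = 0.00141) and 1.55 (adjusted p = 0.00181).

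Of the other fibulins, Fbln1, for a fibulin of elastic fibres and basement membranes, fell together with Fbln5. It was at 49.5 and 47.7 FPKM in B16-F1, 20.6 and 20.0 FPKM in B16-F1R2 and 22.2 and 23.0 FPKM in B16-F1R2L, with log2 fold changes of −1.25 (adjusted p = 6.95e-06) and −1.10 (adjusted p = 1.05e-05). Fbln7, for a fibulin of teeth and cartilage, rose from 0.0598 and 0.0624 FPKM to 1.99 and 2.11 FPKM in B16-F1R2 and 2.00 and 2.37 FPKM in B16-F1R2L. Its log2 fold changes were 3.74 (adjusted p = 2.1e-05) and 3.82 (adjusted p = 1.85e-05), from a B16-F1 level near single reads. The gene met the minimum only through the metastatic lines. These sizes depend on the pseudocount, ranging from 1.52 to 4.86 and from 1.58 to 4.94 over the 15 alternatives. Efemp2, for fibulin-4, which recruits lysyl oxidase to elastin, rose by about 1 log2 unit in both lines (0.98 and 0.91, adjusted p = 0.000118 and 0.000162), a gene named here after its values were seen. Of the 4 tested, 2 were higher and 2 lower in B16-F1R2, and 2 higher and 1 lower in B16-F1R2L, too few to set against the shares over all genes given above.

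Among the cross-linking enzymes, the 2 tested relatives of lysyl oxidase moved apart. Loxl2, at 2.12 and 2.45 FPKM in B16-F1, rose to 4.92 and 5.05 FPKM in B16-F1R2 and 4.02 and 4.21 FPKM in B16-F1R2L (log2 fold change 1.10, adjusted p = 0.00026, and 0.83, adjusted p = 0.000877). Loxl3 fell from 19.4 and 21.0 FPKM to 9.64 and 10.1 FPKM and to 9.06 and 8.48 FPKM (−1.03, adjusted p = 6.86e-05, and −1.19, adjusted p = 3.64e-05). Fkbp10, for a chaperone of the endoplasmic reticulum that acts on collagen and tropoelastin, rose from 1.47 and 1.52 FPKM to 23.6 and 23.5 FPKM in B16-F1R2 and 21.9 and 21.4 FPKM in B16-F1R2L. Its log2 fold change was 3.89 (SE 0.0603, adjusted p = 2.34e-07) and 3.77 (SE 0.0603, adjusted p = 2.54e-07).

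The proteases that can cut EMILIN-1 or elastic fibres were mostly below the minimum level, and 3 of 9 were tested. Elane, for neutrophil elastase, was listed at 0 in 3 libraries, including both of B16-F1, and was at 0.148 FPKM in B16-F1R2 replicate 1 and at 0.146 and 0.374 FPKM in B16-F1R2L. Without the minimum its log2 fold change was 0.66 in B16-F1R2 (adjusted p = 0.386) and 1.77 in B16-F1R2L (adjusted p = 0.0483). At 0 in both B16-F1 libraries, Elane could not come out lower, and the second result lies just under the threshold at a very low level. Mmp3 was listed at 0 throughout, and Mmp9 was at most 0.0899 FPKM. Mmp14, for a membrane-bound collagenase that activates the Mmp2 proenzyme, was the highest at 159 and 159 FPKM in B16-F1 and fell to 119 and 131 FPKM in B16-F1R2 (−0.35, adjusted p = 0.00346) and to 120 and 111 FPKM in B16-F1R2L (−0.46, adjusted p = 0.0011). Mmp2, for a gelatinase, rose from 1.22 and 1.06 FPKM to 22.9 and 22.8 FPKM and to 30.7 and 29.6 FPKM. Its log2 fold change was 4.21 in the first (SE 0.0798, adjusted p = 5.2e-07) and 4.61 in the second (SE 0.0798, adjusted p = 3.62e-07).

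All 6 integrin genes were tested, and 4 of them differed between the metastatic lines. The genes in this paragraph were picked out after their values were seen. Itga4 and Itga9 encode alpha chains that pair with the product of Itgb1 to bind EMILIN-1, and chains from Itgav, Itgb3 and Itgb5 bind fibulin-5 and fibrillin. Itga4 was at 10.4 and 10.6 FPKM in B16-F1, 15.2 and 16.4 FPKM in B16-F1R2 and 20.1 and 21.9 FPKM in B16-F1R2L. It rose against B16-F1 in both lines (0.58, adjusted p = 0.000593, and 0.99, adjusted p = 6.31e-05). Itga9 was at 5.94 and 5.55 FPKM in B16-F1 and 5.59 and 5.41 FPKM in B16-F1R2, and rose to 9.39 and 9.72 FPKM in B16-F1R2L (log2 fold change 0.72 against B16-F1, adjusted p = 0.000337). Itgav fell in both lines (−0.40, adjusted p = 0.00428, and −0.21, adjusted p = 0.0466), and Itgb3 fell in B16-F1R2 (−0.40, adjusted p = 0.029) but rose in B16-F1R2L (0.39, adjusted p = 0.0314). Against B16-F1, 2 of the 6 were higher and 2 lower in B16-F1R2, and 4 higher and 1 lower in B16-F1R2L, where all tested genes gave 28.2% and 27.2%, and 29.5% and 27.1%. Itgb1 was far above the others at 190 to 205 FPKM and did not pass the test in any comparison. Between the metastatic lines 6 of the 23 tested partners were higher in B16-F1R2L and the other 17 did not pass the test, with a median log2 fold change of 0.15. Over all tested genes 12.1% were higher and 10.5% lower. The 6 were Adamtsl4 (0.75, adjusted p = 0.00624), Itga4 (0.41, adjusted p = 0.012), Itga9 (0.79, adjusted p = 0.00313), Itgb3 (0.78, adjusted p = 0.0101), Itgb5 (0.29, adjusted p = 0.0455) and Mmp2 (0.40, adjusted p = 0.0197). This count dropped to 2 without B16-F1R2 replicate 1 or without B16-F1R2L replicate 2, and the call of Mmp2 was lost without any one of the 4 metastatic libraries (adjusted p = 0.0738 to 0.0974).

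**Figure D3:**
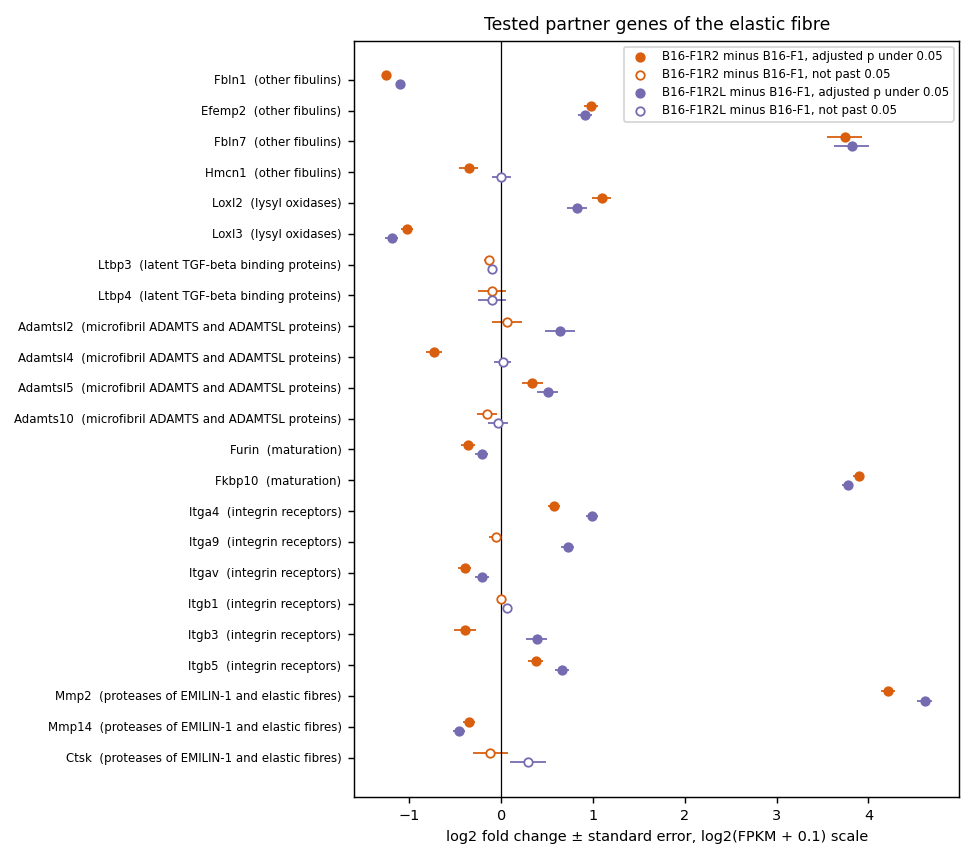
Log2 fold change, on the log2(FPKM + 0.1) scale, of the 23 tested partner genes in B16-F1R2 and B16-F1R2L against B16-F1, with bars for the standard error and filled points for an adjusted p under 0.05. Fbln7, Fkbp10 and Mmp2 lie near 4 in both lines, Fbln1 and Loxl3 near −1, and most of the others between −0.5 and 1.

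Fibroblasts and mural cells are a usual source of elastic fibre RNA, and their markers were read beside these genes. Summed over 10 markers, the level was 1.15 to 1.33 FPKM in B16-F1, 22.4 to 23.2 FPKM in B16-F1R2 and 9.90 to 11.0 FPKM in B16-F1R2L. Of the 10, Dcn, Lum, Thy1 and Rgs5 were at 0 in all 6 libraries. The sum came mostly from Col1a1, at 16.8 and 17.1 FPKM in B16-F1R2 and 2.81 and 2.19 FPKM in B16-F1R2L, and from Pdgfrb, at 4.18 to 6.21 FPKM in the metastatic libraries. Leukocyte markers summed to 0.170 to 0.684 FPKM in B16-F1, 13.6 to 13.7 FPKM in B16-F1R2 and 17.6 to 19.2 FPKM in B16-F1R2L. In the metastatic lines that sum came mostly from Cd79a, at 12.4 to 17.1 FPKM. Lyz2, which met the minimum only through the metastatic libraries, was at 0.170 and 0.625 FPKM in B16-F1, at 0.916 and 1.18 FPKM in B16-F1R2, and at a mean of 1.78 FPKM in B16-F1R2L. Csf1r was at 0 in B16-F1 and at 0.0398 to 0.174 FPKM in the metastatic libraries. The melanocyte sum given above was lower in both metastatic lines, as was the mean level of each of its genes apart from Mitf in B16-F1R2L. Mitf, for the master regulator of these cells, was at 92.3 and 88.7 FPKM in B16-F1 and 79.5 and 83.6 FPKM in B16-F1R2 (−0.15, adjusted p = 0.106), and rose to 112 and 127 FPKM in B16-F1R2L (0.40, adjusted p = 0.00315). The part of these marker lists in the differences of the elastic fibre genes was not tested.

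The genes around each tested gene were compared with it, taking the 5 nearest tested genes on either side. Around Emilin1, 1 of 10 neighbours was higher and 3 were lower in B16-F1R2, from −1.09 to 0.18 with a median of −0.11, beside 3.15 for Emilin1. In B16-F1R2L 0 of the 10 were higher and 8 lower, with a median of −0.25. The neighbours of Fbln5 had a median of 0.035, with 1 higher and 2 lower, and in B16-F1R2L 3 were higher and 2 lower. The 1 that was higher in B16-F1R2, 9030617O03Rik, met the minimum only through the metastatic lines. Around Emilin2, 2 were higher and 6 lower, with a median of −0.34. The range was wide, from −3.77 (Arhgap28) to 3.58 (Epb4.1l3), and in B16-F1R2L 2 were higher and 5 lower. Epb4.1l3, at 0.0518 and 0.0179 FPKM in B16-F1, met the minimum only through the metastatic lines. Arhgap28, at most 0.0125 FPKM in the metastatic libraries, met it only through B16-F1. Both ends of the range are therefore partly fixed by the minimum. Around Mfap2, 5 of the 10 neighbours were higher and 3 lower, with a median of 0.45, and the 5 were Padi4 (3.47), Padi2 (1.67), Gm13031 (0.94), Arhgef19 (2.23) and Hspb7 (4.15). These 5 were also higher in B16-F1R2L, where 2 of the 10 were lower. All but Padi2 were under 1 FPKM in both B16-F1 libraries and reached the minimum only through metastatic libraries. Hspb7 did so through B16-F1R2 alone, being at 0.524 and 0.492 FPKM in B16-F1R2L. Such an entry favours genes that are higher in a metastatic line, so nothing is read from the count. Over all tested genes, 28.2% were called higher and 27.2% lower in the first of these lines, 29.5% and 27.1% in the second. Neighbours were not tested as a group.

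**Figure D4:**
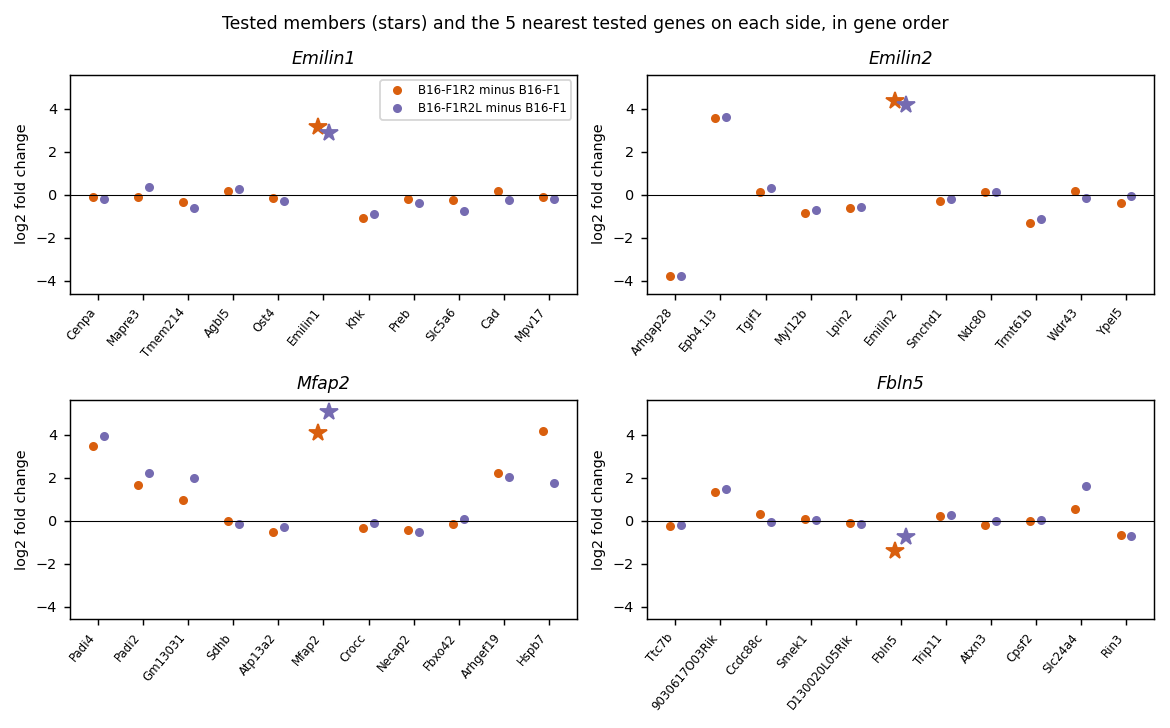
Log2 fold change, on the log2(FPKM + 0.1) scale, of the 4 tested elastic fibre genes (stars) and of the 5 nearest tested genes on each side (points), in gene order and not to distance, in B16-F1R2 and B16-F1R2L against B16-F1. The neighbours of Emilin1 lie between −1.09 and 0.37, well below its 3.15 and 2.86. Of the 5 neighbours of Mfap2 that are higher in both lines, all but Padi2 met the minimum only through metastatic libraries, Hspb7 through B16-F1R2 alone.

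The profile of Emilin1 over the 6 libraries was compared with every other tested gene, as the Euclidean distance between log2(FPKM + 0.1) values centred on each gene's mean. The nearest was Jup, the gene of plakoglobin, a protein of desmosomes and adherens junctions, at a distance of 0.13. It was at 0.632 and 0.649 FPKM in B16-F1, 6.43 and 5.91 FPKM in B16-F1R2 and 5.53 and 4.66 FPKM in B16-F1R2L. Next came Def6, for a guanine nucleotide exchange factor of lymphocytes, at 0.20, Arhgef16 at 0.30, 5730559C18Rik at 0.32 and Mapk13, for a p38 kinase, at 0.37. The profile rests on 3 lines. These genes were picked for their likeness to Emilin1, so the pattern they share with it follows from the choice. Jup, Arhgef16 and 5730559C18Rik were under 1 FPKM in both B16-F1 libraries and met the minimum only through the metastatic lines.

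**Figure D5:**
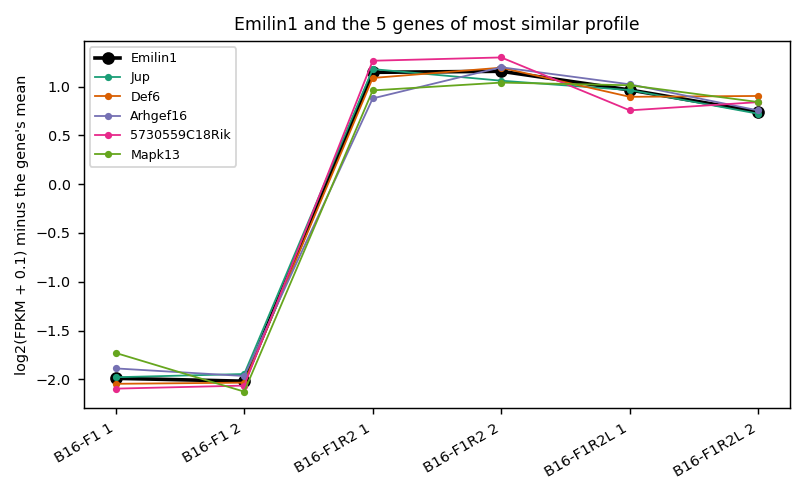
Log2(FPKM + 0.1) minus the gene's own mean in each of the 6 libraries for Emilin1 (black) and the 5 tested genes of smallest distance to it; lines join the values of a gene and mark no order between libraries. All 6 genes are low in both B16-F1 libraries and high in the 4 metastatic libraries, which follows from how the 5 were chosen.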

How the data were processed

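Poly(A)+ RNA was made into strand-specific libraries and read as 50-base single ends. Per the labels and the study's methods, the authors aligned reads with TopHat2 2.0.10 (Bowtie 1.0.0, SAMtools 0.1.1.9) to mm9, allowing 2 mismatches and 20 positions per read, after FastQC 0.10.1. The authors deposited FPKM values, 1 table with a column per library. Cuffnorm is named in the submitters' processing notes, but its settings, the annotation and any scaling between libraries are not given in the sources used here. Since FPKM are not counts, the authors' DESeq2 test was not repeated.

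Of 23951 genes, the 11379 that reached 1 FPKM in 2 or more libraries were kept. Their log2(FPKM + 0.1) values were fitted by limma (version 3.58.1, run in R 4.3.3; functions lmFit, contrasts.fit and eBayes, trended) over all 6 libraries, with Benjamini-Hochberg adjustment at 0.05 and no block for the replicate number. The fit was tested on simulated data. Groups were taken from the labels, and 16 or fewer alternatives were run per gene. The depth was estimated from how small FPKM can get among 4814 single-transcript genes of at least 1000 bases, and reads per gene follow from it and from the longest transcript. Shared 50-base stretches and positions come from GENCODE on NCBIM37, and promoters from RefSeq (GRCm38.p6), matched to NCBIM37 by sequence. Protein sequences were not used here.

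The members and lists were chosen with earlier results of these data known. All 10 members are described. Partners are named by a rule: those past the threshold whose log2 fold change was 1 or more in size, the rest of the EMILIN family, and Elane, Mmp3, Mmp9 and Mmp14. Other partners named in the text are said there to have been picked after their values were seen.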

Additional observations from a re-analysis of the deposited data

How the results depend on the processing

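Against B16-F1, the calls of Emilin1, Emilin2, Mfap2 and Fbln5 kept their direction and their side of the threshold under every alternative other than a minimum fold change, 16 for each gene and 15 for Emilin2, which a minimum of 5 FPKM leaves out. For Emilin2 and Mfap2 the minimum level already required a difference, so this is no sign of stability. Between the metastatic lines Emilin1 kept its call under 6 of 16. With a minimum log2 fold change of 1, in B16-F1R2 against B16-F1, 819 genes stayed higher and 328 lower, with 4 partners higher and 2 lower. In B16-F1R2L against B16-F1 the counts were 957 and 259, with 3 partners higher, 2 lower and 0 members lower, since Fbln5 was at −0.75. Between the metastatic lines they were 116 and 24, with 0 members and 0 partners higher and 0 members lower. With no minimum level, 13 partners were higher in B16-F1R2, and 5 members (with Mfap4 and Eln) in B16-F1R2L. Mfap4 started from 0 in B16-F1 and could not have been called lower. Between the metastatic lines, 743 genes, 0 members and 1 partner were then lower. With a minimum of 5 FPKM, the partners higher in B16-F1R2L against B16-F1 numbered 7, and members higher against B16-F1 fell from 3 to 2 in both lines, fewer genes being tested. Rescaling each library to the same sum moved the median log2 fold change to 0.12 in B16-F1R2L against B16-F1 and 0.13 between the metastatic lines. The first then had 2043 genes and 3 partners lower, and the second 2079 genes higher and 489 lower in place of 1378 and 1190, with 0 members lower. Without a trend, 3 partners were lower in B16-F1R2L than in B16-F1, and between the metastatic lines 650 genes and 0 members were lower. With only the 4 libraries compared, 874 genes were higher and 644 lower between those lines, and 0 members lower. Quantile normalization left 0 members and 1 partner lower there, and gave Fbln7 a value of −0.12. A pseudocount of 1 made Mfap2 the second member called higher between the metastatic lines (0.81, adjusted p = 0.028), for a count of 2.

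Replicate numbers did not pair the libraries: the deviations of same-numbered libraries correlated at 0.052, −0.10 and 0.079 between lines. With the replicate number as a block (replicate block), 2 members were higher in B16-F1R2L than in B16-F1R2, Mfap2 being added (adjusted p = 0.0395). Leaving out 1 library at a time, partners lower in B16-F1R2L against B16-F1 numbered 3 to 4, with 3 without either B16-F1 library or B16-F1R2L replicate 2. Between the metastatic lines, genes higher numbered 297 to 904, genes lower 140 to 991, members higher 1 to 2, members lower 0 to 1, and partners higher 2 to 5. In that comparison Emilin2 ranged from −0.41 to 0.0107, the latter without B16-F1R2 replicate 1, and Fbln7 from −0.038, without B16-F1R2L replicate 2, to 0.20. Where a count or call moved and no construction is named, the cause was not tested. Depth limits the 6 genes under 0.316 FPKM, where 1 read is worth 0.00576 to 0.0459 FPKM.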
